A study of Mus musculus with 4 samples.

Results

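The m6A peak list of mouse splenic natural killer (NK) cells held 20727 distinct peaks. Of these, 2981 narrow peaks in 2320 genes lay in the distal part of a 3' untranslated region (3' UTR), the stretch of an mRNA between its stop codon and its poly(A) tail. A peak was counted as narrow and distal when it was annotated to a 3' UTR, spanned at most 500 nt, belonged to a protein-coding gene, and had the centre of its exonic part more than 1000 nt past the stop codon on the longest coding transcript of that gene. The steps of this selection left 11046 peaks annotated to a 3' UTR, 8608 of them at most 500 nt wide, 8518 of those in protein-coding genes, and 7859 that touched an exon of the longest coding transcript. The other narrow 3' UTR peaks used below for comparison were 1876 peaks centred within 200 nt of the stop codon and 2845 peaks centred 200 to 1000 nt past it. Their values did not enter the choice of distal peaks, which used position and width alone.

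The NK cells came from the spleen of C57BL/6 mice and are described as wild type in the design text of the series. They were sorted after expansion in vivo with a plasmid that expresses IL-15 (pLIVE-IL-15), as the methods of the study describe. Poly(A) RNA was fragmented, and fragments bound by an m6A-specific antibody were sequenced beside input fragments taken without the antibody. There were 4 libraries in 2 groups, with 2 immunoprecipitates and 2 inputs. The peak list gives each peak 1 fold enrichment of immunoprecipitate over input and 1 peak-calling p-value (not adjusted) over all libraries, with 0 columns per sample. The depth of the libraries is therefore unknown and no error between replicates can be given, so every comparison below describes this list and none of them is a test over mice. The cells came from IL-15-expanded NK cells only, and no library without METTL3 or without IL-15 was part of the list.

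N6-methyladenosine (m6A) is placed on nascent mRNA by a complex of METTL3 and METTL14, mostly at the consensus DRACH (in DNA letters, D stands for any base but C, R for a purine, and H for any base but G), and is read by proteins of the YTH family that change the stability or translation of the mRNA. The mark is best known around stop codons and in long last exons. The distal 3' UTR is also where AU-rich elements, Pumilio sites, microRNA sites and polyadenylation signals act, and alternative polyadenylation can remove it from part of the copies of an mRNA.

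To show the sequence inside the peaks, the DRACH match nearest the centre is given in capitals with 8 bases on each side, read 5' to 3' on the strand of the gene in GRCm38, for Ptpn11 (the gene the study followed up) and for distal peaks with very low p-values. In each case the window lies in the last exon, within the 3' UTR.
Ptpn11, chr5:121130718-121130738, minus strand: cactcagcTGACTttttgccc
Lcp1, chr14:75230601-75230621, plus strand: ccctccccTGACAgtaggctc
Cdc42, chr4:137319931-137319951, minus strand: gaacctttGAACAactggctg
Lasp1, chr11:97837760-97837780, plus strand: gaacctgaAGACTttgatcag
Atp2a3, chr11:72992860-72992880, plus strand: agacagatGAACTccgtgttt
The Ptpn11 peak held 1 DRACH match in its whole length, 30 nt downstream of the centre, and the nearest matches of Lasp1 and Atp2a3 lay 51 and 39 nt upstream of theirs, so these 3 windows do not include the centre. The much wider Lcp1 and Cdc42 peaks held 13 and 11 matches. None of these 5 matches was the GGACT word. A match is a description of letters and does not locate a methylated base.

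For members of the signalling and effector lists described further on, the same windows were read from the peak with the lowest p-value in each list.
Itgal, chr7:127335028-127335048, plus strand: accaaataGAACCaaaattat
Serpinb9, chr13:33017886-33017906, plus strand: cattcttcTGACTtccttcat
Il18rap, chr1:40551579-40551599, plus strand: taaataggAAACCagtaagca
Nras, chr3:103067080-103067100, plus strand: atctgtgtAAACCtggtaaat
Pik3r1, chr13:101680968-101680988, minus strand: tgtttataTGACAttgataaa
Elf4, chrX:48411252-48411272, minus strand: ctgatatgTGACTccctcctc
Alkbh5, chr11:60557810-60557830, plus strand: ggatatagGGACTcccatata
Btg2, chr1:134075436-134075456, minus strand: agctattcTGACAgaaaagac
Traf6, chr2:101700824-101700844, plus strand: atcaacctGAACTtgggacac
Mcl1, chr3:95662983-95663003, plus strand: cagggaaaAAACAtgcagtct
Ccr2, chr9:124108906-124108926, plus strand: aaaggaacAGACAacttgaga
The Alkbh5 window, with 2 matches in its peak, held GGACT at the match nearest the centre. The Itgal and Il18rap windows held GAACC and AAACC, 66 and 49 nt downstream of the centre, and the Mcl1 window held AAACA, the word found most often in distal peaks.

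Distal peaks had modest enrichment. Their median fold enrichment was 2.09 (interquartile range 1.64 to 3.32, 95% interval of the median 2.04 to 2.13 from counting alone), and the values ran from 1.04 to 415. The median was 1.87 for narrow peaks 200 to 1000 nt past the stop codon, 1.77 for those at the stop codon, 2.4 for the 2164 wide 3' UTR peaks and 2.66 for all peaks. The medians of the narrow sets were thus ordered by distance from the stop codon, while their interquartile ranges overlapped.

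The p-values ran the other way. A peak-calling p-value under 0.001 was reached by 1715 of 2981 distal peaks (57.5%, 95% Wilson interval 55.7 to 59.3), beside 61.5% of all peaks. For narrow peaks 200 to 1000 nt past the stop codon the share was 68.0%, for those at the stop codon 72.9% (70.9 to 74.9) and for wide 3' UTR peaks 83.5%. A fold enrichment of at least 2 was reached by 1595 distal peaks (53.5%, 51.7 to 55.3) beside 63.9% of all peaks, and a fold of at least 5 by 458 (15.4%, 14.1 to 16.7) beside 34.6% of all peaks. The share with a fold of at least 5 was 11% at 200 to 1000 nt and 6.13% (5.13 to 7.31) at the stop codon. The intervals of the distal and stop codon sets did not overlap for either share, and they cover counting error only. Both a fold of at least 2 and a p under 0.001 were met by 839 distal peaks (28.1%) and by 7480 of all peaks (36.1%).

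**Figure D1:**
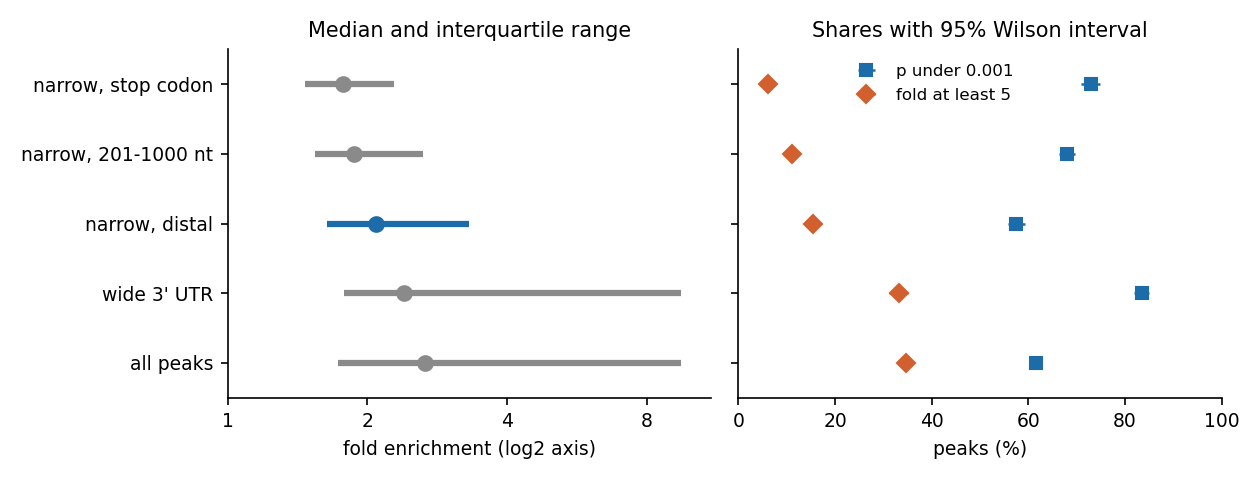
Left, median (point) and interquartile range (line) of the fold enrichment on a log2 axis for 5 sets of peaks. Right, the percent of peaks in each set with a p under 0.001 (squares) or a fold of at least 5 (diamonds), with 95% Wilson intervals. From the stop codon to the distal set the share with p under 0.001 went from 72.9% to 57.5% and the share with a fold of at least 5 from 6.13% to 15.4%.

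Distal peaks with high folds had a low p-value less often than those with low folds. Among the 458 distal peaks with a fold of at least 5, 191 (41.7%) had a p under 0.001, against 1524 of 2523 (60.4%) of those below 5 and 876 of 1386 (63.2%) of those below 2. Across the 2981 distal peaks Spearman's rho between fold and -log10 p was -0.124, between width and -log10 p 0.571 and between width and fold 0.266. Both fold and p rest on the same read counts, which also grow with the width of a peak, and peaks of 1 gene are not independent.

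Many of the high folds were the same number. Of the 8 most repeated fold values from 5 to 20 in the whole list, all 8 were multiples of a step of 1.90, as rounded in the file (5.69, 7.59, 9.48, 11.4 and so on). Among distal peaks, 79 had a fold of exactly 5.69, 45 of 7.59, 74 of 9.48 and 33 of 11.4. Of the 429 distal peaks with a fold from 5 to 20, 282 (65.7%, 61.1 to 70.1) sat on such a multiple, compared with 68.9% of 103 stop codon peaks and 79.0% of 4762 peaks in the whole list. A p under 0.001 was found for 58 of the 282 (20.6%) and for 104 of the 147 that lay between the multiples (70.7%). The weakest log10 p at a multiple was -1.31 at both 5.69 and 7.59 and -3.75 at 19.0. How many reads stood behind these repeated values is not given in the list.

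**Figure D2:**
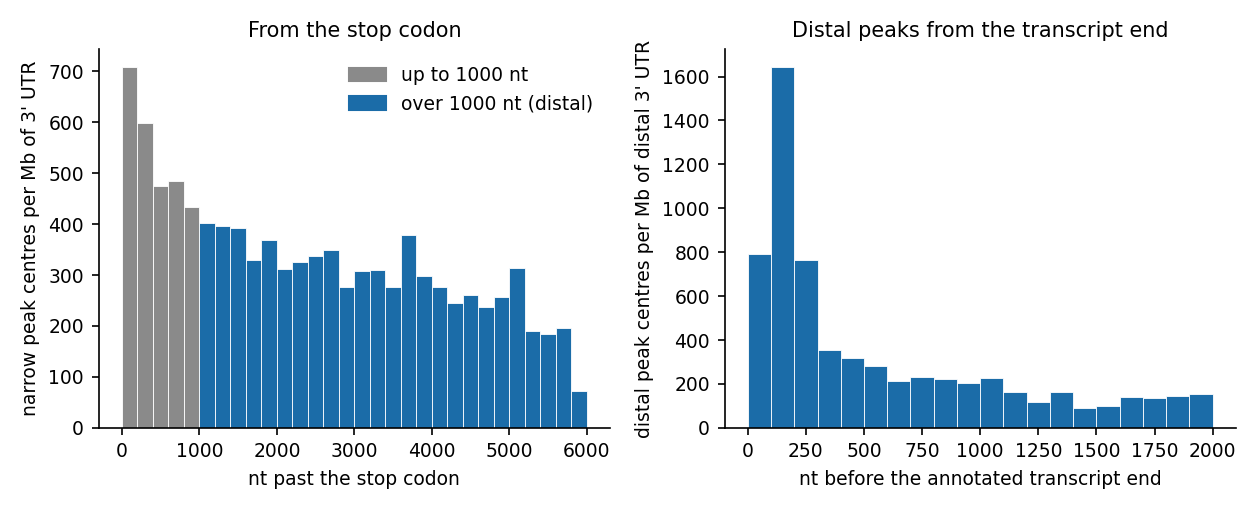
Left, narrow 3' UTR peak centres per Mb of annotated 3' UTR in steps of 200 nt from the stop codon, with the distal peaks in blue. Right, distal peak centres per Mb of distal 3' UTR in steps of 100 nt before the annotated transcript end. The right panel reaches 1642 per Mb at 100 to 200 nt before the end and 355 at 300 to 400 nt.

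Distal peaks gathered near the annotated end of the transcript. Their centres lay a median of 1919 nt past the stop codon (interquartile range 1374 to 2864, range 1001 to 19136) and a median of 255 nt before the transcript end (135 to 897), in 3' UTRs with a median length of 2629 nt. In relative terms the median centre lay 88.1% of the way along its 3' UTR (69.2 to 94.2). Within 300 nt of the end lay 1615 distal peaks (54.2%, 52.4 to 56.0), within 100 nt 422 (14.2%) and within 1000 nt 2307 (77.4%). The peak reached the last annotated base in 776 cases (26.0%).

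Set against the amount of 3' UTR present, narrow peaks were densest in the last 300 nt of long 3' UTRs. Over the 10158 coding transcripts of genes with a peak, narrow peak centres numbered 708 per Mb in the first 200 nt of the 3' UTR, 506 per Mb from 200 to 1000 nt and 321 per Mb beyond. Beyond 1000 nt, the last 300 nt of the transcripts held 1066 per Mb and the rest 177 per Mb. In steps of 100 nt back from the end, the density was 791, 1642, 765, 355 and 319 per Mb. These densities use the annotated end of 1 transcript per gene, and which end was used in NK cells was not measured. The 2164 wide 3' UTR peaks are not counted in them. Because width includes any intron that a peak spans, the width limit need not act evenly along a transcript.

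Distal peaks were placed on the longest coding isoform, so shorter annotated isoforms could end before them through that choice alone. The shares that follow were not compared with peak-free distal positions. Of the distal peaks, 2287 (76.7%) lay in genes with more than 1 annotated coding isoform. For 1965 of these (85.9%) at least 1 other coding isoform ended before the centre, for 1303 (57.0%) the centre lay in only 1 isoform, and for 274 (12.0%) it lay in every isoform. The centre fell in the coding sequence of another isoform for 10 distal peaks (0.335%). Nearly all, 2979, lay in the last exon. An exon of another gene overlapped 291 of the peaks (9.76%), on the opposite strand for 253 (8.49%) and on the same strand for 41 (1.38%), and the list does not say from which gene those reads came.

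The median width was 180 nt (91 to 270, range 58 to 481), the most frequent width was 61 nt with 375 peaks (12.6%), and 91 nt followed with 251 (8.42%). The 5 most frequent widths, from 61 to 181 nt, were 30 nt apart, and the next was 180 nt with 154 peaks. Repeat-masked sequence made up at least 50% of the window of 75 nt on either side of the centre in 291 peaks (9.76%) and none of it in 1014 (34.0%).

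Within the distal set, peaks farther past the stop codon had higher median folds, and those beyond 2000 nt had lower shares of low p-values. From 1000 to 1500 nt there were 937 peaks with a median fold of 1.96, of which 60.8% had a p under 0.001 and 12.3% a fold of at least 5. From 1500 to 2000 nt the 637 peaks had a median fold of 2.02 and shares of 61.1% and 14%. From 2000 to 3000 nt the 726 peaks had a median of 2.17 and shares of 53.9% and 16.3%, and from 3000 to 5000 nt the 545 peaks had 2.18, 54.9% and 18.5%. Beyond 5000 nt the 136 peaks had a median of 2.71, with 48.5% at a p under 0.001 and 25.7% at a fold of at least 5. Over single peaks the relation was weak, with a Spearman's rho of 0.128 between distance and fold and -0.0905 between distance and -log10 p (n = 2981). The GC content of the windows went from 43.2% in the first of these bins to 40.2% in the last.

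Peaks close to the transcript end and peaks away from it differed little in their middle values. The 1615 peaks within 300 nt of the end had a median fold of 2.09 (1.71 to 3.01) and the 1366 others 2.04 (1.56 to 3.79). A p under 0.001 was found for 61.1% of the first and 53.3% of the second, and a fold of at least 5 for 13.6% and 17.5%.

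A distal peak was found in 2320 of the 5478 peak-bearing coding genes whose 3' UTR is longer than 1000 nt (42.4%, 41.0 to 43.7). The share was 24.4% for 3' UTRs of 1000 to 1500 nt, 43.4% for 1500 to 2000 nt, 48.3% for 2000 to 3000 nt, 52.3% for 3000 to 5000 nt and 51.4% above that. It ran from 33.6% of such genes on chromosome 7 to 49.3% on chromosome 15, leaving out the Y chromosome with its 2 genes. Most genes, 1768 (76.2%), had 1 distal peak, 466 (20.1%) had 2, 69 (2.97%) had 3 and 17 (0.733%) had 4 or more. In 1010 of the 2320 genes (43.5%) no peak other than a distal one was listed. Some listed peaks covered the same bases, since 212 (7.11%) overlapped another distal peak, and the 2981 peaks merged into 2873 separate stretches.

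In 3 of the genes with the most distal peaks, some of the listed peaks covered each other. Galnt2, an enzyme that starts O-linked glycosylation, had 6 peaks that merged into 3 stretches, with folds from 1.22 to 2.91, and each overlapped a same-strand exon of another annotated gene. Chrnb2, an acetylcholine receptor subunit, had 6 peaks in 4 stretches with folds from 1.60 to 5.69. Its peaks with a log10 p of -2.85 or lower overlapped an exon of a gene on the opposite strand, and those at -1.42 and -1.63 did not. Stk16, a serine/threonine kinase, had 5 peaks in 3 stretches with folds from 1.78 to 2.68, all over an exon of a gene on the opposite strand. Tmem127, named here after its values were seen, had as many peaks as Stk16, 5, but in 5 separate stretches, the most of any gene. The centres of neighbouring distal peaks of 1 gene, overlapping ones included, lay a median of 405 nt apart (210 to 944, n = 661 gaps).

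Few genes had both a distal and a narrow stop codon peak, and narrow stop codon peaks were few among peak-bearing long 3' UTR genes at large. Of the 2320 genes, 205 (8.84%) also had a narrow stop codon peak, beside 594 of the 5478 peak-bearing genes with a 3' UTR over 1000 nt. A narrow peak 200 to 1000 nt past the stop codon was found in 403 (17.4%) of the 2320, without a share of all such genes to set beside it. Seen from the stop codon, 205 of 594 genes with a narrow stop codon peak and a 3' UTR over 1000 nt had a distal peak (34.5%). The share was 42.4% of the 5478 peak-bearing genes with such a 3' UTR and 23.1% of all 10046 coding genes with one. Of the 2320 genes, 1010 were peak-bearing through distal peaks alone, whereas each of the 594 had another peak. These shares therefore do not compare like with like, and no direction is read from them. Wide stop codon peaks are not counted in these shares.

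Within those 205 genes the distal peak had the higher fold more often. Taking the peak with the lowest p at each position, the distal fold was higher in 147 genes (71.7%), lower in 54 and equal in 4. The median fold was 2.09 at the distal peak and 1.63 at the stop codon peak, and the median difference on the log2 scale was 0.40 (-0.01 to 1.03). The p-values did not follow, since the distal peak had the lower p in 100 of the 205 genes, with a median log10 p of -4.31 against -4.74 at the stop codon. For Socs3, which encodes a feedback inhibitor of cytokine receptors, the folds were 2.95 distal and 1.71 at the stop codon. For Klrk1, which encodes the activating receptor NKG2D, they were 1.74 and 1.18, and for Lcp1, an actin-bundling protein of leukocytes, 1.68 and 1.28. Both peaks belong to the same gene, but the amount of RNA at each position was not measured, and read depth along the transcript was not analysed here.

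**Figure D3:**
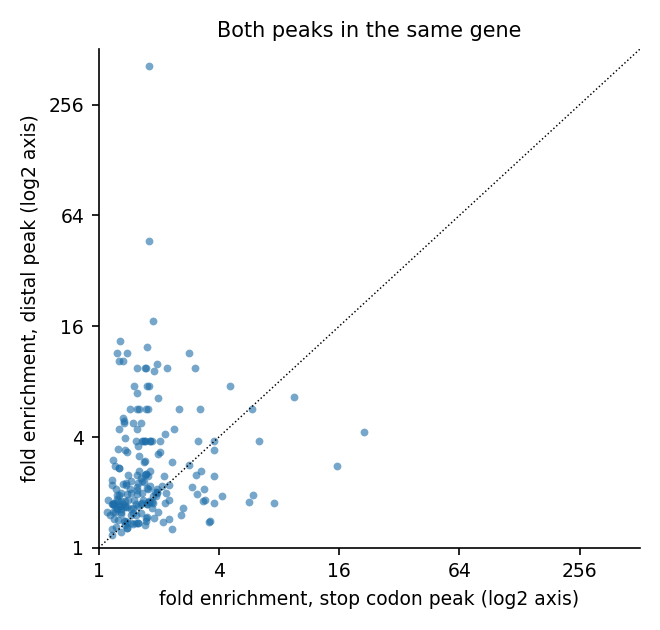
Each point is 1 of 205 genes with a narrow stop codon peak and a narrow distal peak, with the fold enrichment at the stop codon on the x axis and at the distal peak on the y axis (log2 axes), and the dotted line marks equal folds. The distal fold was higher in 147 genes, and Zbtb44 stands alone at a distal fold of 415.

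The m6A consensus had about the same density in distal peaks as in peak-free distal sequence of the same genes. In windows reaching 75 nt to either side of the centre, on the strand of the gene, DRACH occurred in 94.7% of distal peaks (93.8 to 95.4) at 19.5 sites per kb. The opposite strand of the same windows held 22.6 per kb. Windows without any peak from the distal 3' UTR of the same genes (n = 23857) held DRACH in 94.7% at 19.4 per kb, and 22.1 per kb were counted at narrow stop codon peaks. In 50-nt steps out to 500 nt from the distal centres the density stayed between 18.3 and 21.1 per kb, with 20.3 and 19.7 on either side of the centre. The 839 distal peaks with a fold of at least 2 and p under 0.001 had 19.3 per kb.

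**Figure D4:**
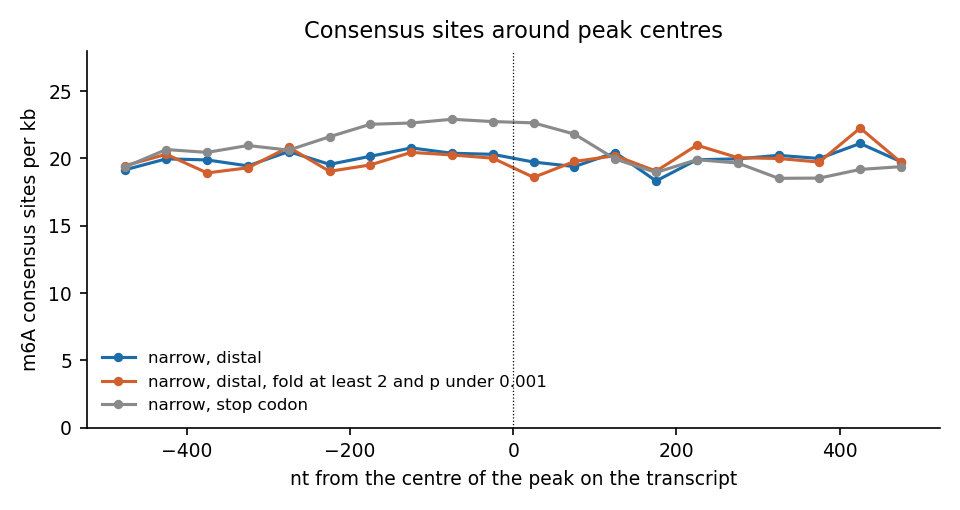
DRACH matches per kb on the strand of the gene in 50-nt steps from the peak centre for all distal peaks, for the distal peaks with a fold of at least 2 and p under 0.001, and for narrow stop codon peaks. The distal line is nearly level, between 18.3 and 21.1 per kb, whereas the stop codon line stands at 22.7 and 22.6 per kb beside the centre.

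Shorter forms of the consensus gave the same picture. GGAC occurred in 32.1% of distal windows (2.69 per kb), in 31.9% of the peak-free windows of the same genes (2.64 per kb), in 51.0% of stop codon windows (5.06 per kb) and in 45.4% of windows of all placed peaks. It was found in 34.2% of distal windows with p under 0.001. GGACT, which is contained in both DRACH and GGAC, occurred in 12.3% of distal windows, 12.2% of the peak-free windows and 20.3% of stop codon windows. Of the 8669 DRACH matches in distal windows 959 (11.1%) were AAACA, the most frequent word, and 391 (4.51%) were GGACT. The mean GC content was 41.8% in distal windows, 43.2% in the peak-free windows and 49.4% at the stop codon.

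Motifs of 3' UTR-binding factors and of polyadenylation were also counted on the strand of the gene. The AU-rich pentamer ATTTA occurred in 22.6% of distal windows, 21.8% of the peak-free windows, 13.4% of stop codon windows and 13.9% of windows of all placed peaks. Its longer form TATTTAT, which contains ATTTA, occurred in 4.13%, 3.26% and 2.40% of the first 3 of these. The Pumilio element TGTANATA was found in 4.53% of distal windows, 2.90% of the peak-free windows and 1.81% of stop codon windows. The polyadenylation signal AATAAA occurred in 20% of distal windows against 8.58% of the peak-free windows.

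Motif shares differed with the position of the distal windows. AATAAA was found in 26.6% of distal windows within 300 nt of the transcript end and 12.2% of the others, and TGTANATA in 5.88% and 2.93%. TATTTAT occurred in 5.14% and 2.93% and ATTTA in 24.3% and 20.6%. When whole ends were compared instead, AATAAA occurred in the last 300 nt of 78.6% of the 1357 transcripts with a distal peak there and 69.0% of the 2451 long 3' UTR transcripts without any peak there. For TGTANATA these shares were 12.5% and 10.3%, for ATTTA 46.4% and 45.9%, and for GGAC 48.8% and 47.5%. DRACH stood at 19.9 and 19.6 per kb.

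Very low p-values belonged to peaks wider than the distal median. Lcp1 (ENSMUSG00000021998) had a 481-nt peak at chr14:75230362-75230842, centred 1264 nt downstream of the stop, with a fold of 1.68 and a log10 p of -253. Cdc42, a small GTPase of cell polarity, had a fold of 1.98 and a log10 p of -231 at 1167 nt. Lasp1, an actin-binding LIM protein, reached a fold of 5.22 with a log10 p of -128. Atp2a3, a calcium pump of the endoplasmic reticulum in blood cells, had a fold of 3.0 and a log10 p of -120, and its peak lay in all 5 of its annotated coding isoforms. The Lasp1 centre lay in 1 of 13.

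The highest folds with a p under 0.001 formed a different set of genes. Zbtb44, a zinc finger protein, had a fold of 415 with a log10 p of -108 at chr9:31070257-31070706, 1726 nt past the stop codon and 5404 nt before the annotated end, in 1 of its 5 coding isoforms. The next was Tgif2, a transcriptional repressor, at 70.2 and a log10 p of -16.0, where the peak overlaps an exon of a gene on the opposite strand. Usp3, a deubiquitinase of histones, followed at 68.3, Hykk, a hydroxylysine kinase, at 62.6, and Fgd3, an exchange factor for Cdc42, at 55.0. Zbtb44 stood far above the next, and whether both immunoprecipitates carried it cannot be read from the list.

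Several of the peaks farthest from a stop codon had weak p-values. Zbtb20, a zinc finger repressor, had a peak at 19136 nt with a fold of 3.32 and a log10 p of -1.34, Hook3, a dynein adaptor, at 10199 nt with 1.94 and -2.89, and Tbp, the TATA-binding protein, at 10112 nt with 9.48 and -1.69. Ino80d, a subunit of a chromatin remodeler, had 1.73 and -2.55 at 9828 nt.

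The gene the study followed up, Ptpn11 (ENSMUSG00000043733), encodes the phosphatase SHP-2, which links cytokine and growth factor receptors to RAS and ERK. Its distal peak lay at chr5:121130683-121130833 on the minus strand, 3410 nt past the stop codon and 225 nt before the annotated end of a 3635-nt 3' UTR, in exon 16 of 16 and in 2 of 2 coding isoforms. The peak had a fold of 1.44 and a log10 p of -4.08. That fold lies below the distal median of 2.09, and the log10 p is lower than the distal median of -3.5. In the RAS-ERK list, 16 of the 23 genes with a long 3' UTR and a peak had a distal peak (69.6%), beside 42.4% of all such genes, and 16 of the 17 peaks had a p under 0.001, beside 61.5% of all peaks.

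The other RAS-ERK members ran from receptor adaptors to kinases. The adaptors Grb2 and Shc1 had folds of 2.18 and 2.23, and the exchange factor Sos2 had 2.31. Among the GTPases, Nras had a 480-nt peak with a fold of 5.22 and a log10 p of -79.4 at 2858 nt, and Rras2 a fold of 1.81. The kinase Braf had 2 peaks with folds of 11.4, a value on a multiple of the repeated step, and 3.13. The kinases Mapk14 and Rps6ka3 had 2.20 and 3.84. Of the inhibitors of the pathway, the GTPase activators Rasa3 and Rasa2 had 1.59 and 1.64, Spred1 and Spred2 had 2.03 and 2.43, and the ERK phosphatases Dusp5 and Dusp7 had 1.5 and 1.55. Rasa2 was the member without a p under 0.001, at a log10 p of -1.87. For every list below too, the count with a p under 0.001 stands beside 61.5% of all peaks and 57.5% of distal peaks. Genes are likewise counted out of those with a long 3' UTR and any peak. The RAS-ERK median was 2.18, and 2 of 17 peaks had a fold of at least 5.

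In the PI3K-AKT-mTOR and FOXO list, 16 of 27 genes (59.3%) had 22 distal peaks, 17 of them with a p under 0.001, at a median fold of 1.935. The regulatory subunit Pik3r1 had a fold of 6.74 with a log10 p of -22.3 at 3882 nt and a second peak at 3.12. The catalytic subunits Pik3ca, Pik3cb and Pik3cd also carried peaks, at 2.14, 1.70 and 1.30 for their lowest p. The phosphatase Inpp5d (SHIP1), which opposes them, had 1.81. Downstream, the kinase Gsk3b had 2.77 with a log10 p of -22.2 and a second peak at 1.43 with a log10 p of -1.3, the weakest in the list. The transcription factors Foxo1, Foxo3 and Foxo4 had 1.69, 1.92 and 1.70, and Rictor, a subunit of mTOR complex 2, had 1.95 with a log10 p of -2.56.

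Cytokine receptor, JAK-STAT and SOCS genes had a distal peak in 13 of 27 cases (48.1%), with 17 peaks, a median fold of 1.90, 14 peaks with a p under 0.001 and 0 with a fold of at least 5. Il18rap, the accessory chain of the IL-18 receptor, had a fold of 1.84 with a log10 p of -69.4 at 2452 nt. Socs3 had 2.95 with -62.3 at 1295 nt, and Stat3 had 2.60 with -53.8 at 1739 nt and a further peak at 2.43 whose centre lay 6 nt before the annotated end. Stat5b, a transducer of IL-15 signals, had 3 peaks with folds of 1.47, 1.40 and 1.32. The receptors of the inhibitory cytokine TGF-beta, Tgfbr1 and Tgfbr2, had 2.09 and 1.45.

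Receptors of NK cells had a distal peak in 10 of 16 peak-bearing long 3' UTR genes (62.5%). Of their 13 peaks 12 had a p under 0.001, beside 61.5% of all peaks and 57.5% of distal ones. Their folds were low, with a median of 1.60 and a range of 1.15 to 4.57. Itgal, the LFA-1 chain that holds NK cells to targets, had a fold of 2.09 with a log10 p of -83.5, and Klrb1b, an inhibitory lectin-like receptor, 2.37 with -47.6. Klrb1c, which carries the NK1.1 antigen, had 1.60, and Cd160 had the highest fold of the list, 4.57. Klrc2 was the exception by p, with a log10 p of -1.94.

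Of 6 effector genes with a long 3' UTR, 3 (50%) had a distal peak, and 2 of the 4 peaks had a p under 0.001. Serpinb9, which protects the cell from its own granzyme B, had a fold of 1.61 with a log10 p of -9.59, in a window that is 94.0% repeat-masked. Rab27a, needed for granule release, had 1.83 with -7.81, and the death ligand Tnfsf10 (TRAIL) had peaks at 1.90 and 1.61 with log10 p of -2.78 and -2.48.

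Transcription factors of lymphoid cells had a distal peak in 20 of 35 peak-bearing long 3' UTR genes (57.1%). There were 29 peaks at a median fold of 1.89, and 22 had a p under 0.001. Elf4, which restrains proliferation of lymphocytes, had 5.90 with a log10 p of -58.8 at 3392 nt, Klf6 2.13 with -46.8 and Ets1 2.37 with -39.6. Ets1 and Ikzf1 each had a second peak, at 1.34 and 1.14. Klf13 had 3 peaks between 1.45 and 1.76, all with a p under 0.001. Bcl11b, a factor of T cell identity, had the highest fold of the list at 15.2 with a log10 p of -2.91, a value on a multiple of the repeated step, as were the folds of 5.69 for Bach2 and 3.79 for Ikzf2.

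The m6A machinery itself carried distal peaks in 9 of 15 peak-bearing long 3' UTR genes (60%). There were 12 peaks with a median fold of 2.40, and 9 had a p under 0.001. Alkbh5, an m6A demethylase, had 2 peaks, with 5.37 and a log10 p of -58.1 at 3378 nt and with 1.71 and -6.79 at 3857 nt. On the side of the writers, Mettl14 had 2.63, Cbll1 7.59 and Mettl16 7.59 with log10 p of -5.23, -4.00 and -1.63. Among the readers, Ythdf1 had 1.77 with -12.1 at 1011 nt, Ythdf3 1.83 and 1.48, Ythdc2 2.17, and Igf2bp2 17.1 with -3.33. Of the 4 peaks with a fold of at least 5 in this list, those of Cbll1, Mettl16 and Igf2bp2 lay on multiples of the repeated step.

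Proteins that bind 3' UTRs or shorten poly(A) tails had the most distal peaks of any list, 35 in 20 of 34 genes (58.8%), with a median fold of 1.81, 28 with a p under 0.001 and 0 with a fold of at least 5. Btg2, which recruits the CCR4-NOT deadenylase, had 1.72 with a log10 p of -44.5 and a second peak at 1.04 with -1.68, the lowest fold of all distal peaks. Pan3, a deadenylase subunit, had 3.62 with -34.3, and Celf1, a GU-rich element binder, 2.50 with -20.4 in all 9 of its coding isoforms. Msi2 had 4 peaks from 1.90 to 3.79, Cnot6l 3 from 1.58 to 2.47, and Pum2, a Pumilio protein, had 1.48 and 1.14.

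The 3 remaining lists were smaller. Ubiquitin ligases of lymphocyte signalling had 10 peaks in 10 of 22 genes (45.5%), with a median of 1.82 and 7 with a p under 0.001, led by Traf6 at 2.84 with a log10 p of -13.7, March1 at 1.64 with -7.21 and Fbxw7 at 4.17 with -6.23. Survival and death genes had 10 peaks in 8 of 17 genes (47.1%), with a median of 2.06 and 6 with a p under 0.001. There the anti-apoptotic genes Mcl1 and Bcl2 had 1.99 with -80.5 and 9.75 with -47.7, and Casp2 had 2.53 with -19.2. Trafficking receptors had 6 peaks in 4 of 8 genes (50%), with a median of 1.775 and 4 with a p under 0.001, among them Ccr2 at 2.0 with -49.0 and the integrin chain Itga4 at 1.93 with -25.0.

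**Figure D5:**
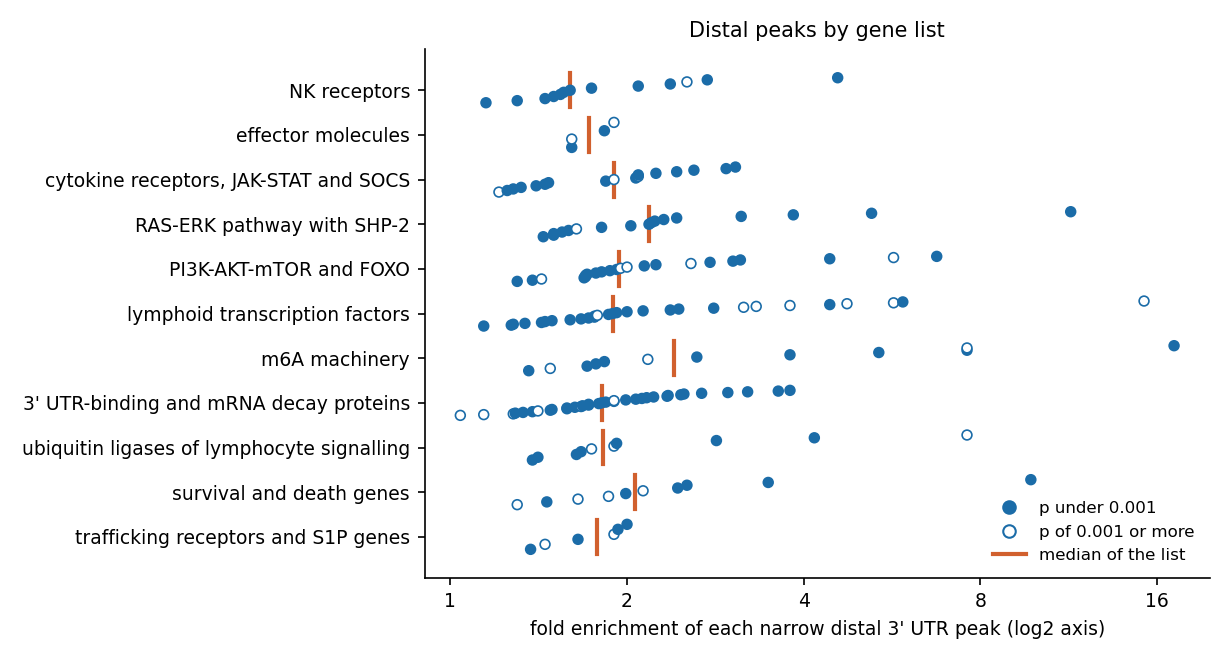
Fold enrichment (log2 axis) of each distal peak in 11 gene lists, filled where p was under 0.001, with the list median as a vertical bar. Medians lay between 1.60 for NK receptors and 2.40 for the m6A machinery, and folds above 8 were found in the RAS-ERK, transcription factor, m6A machinery and survival lists.

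The list shares above are of genes with a long 3' UTR and any peak. In each of the 11 lists this share was above the 42.4% of all such genes, from 45.5% for ubiquitin ligases to 69.6% for RAS-ERK. A gene could be counted as having a peak through its distal peak alone. Out of all long 3' UTR genes, with or without a peak, the share ran from 34.8% for survival and death genes to 56.25% for the m6A machinery. It was 23.1% over all coding genes with a long 3' UTR. The lists hold genes expressed in lymphocytes and were chosen with earlier results of these data known, so these shares are not independent evidence about the pathways. How far the expression level of the genes went with these shares was not tested, since no expression values are part of the list. The lists were also not matched for 3' UTR length. Among all peak-bearing genes the share was 24.4% for 3' UTRs of 1000 to 1500 nt and 52.3% for 3000 to 5000 nt.

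The labelled cell type was checked against peaks in marker genes, which show that reads of a transcript were called but not how much of it was present. Of 12 NK markers, 12 had a peak of any kind, and 2 of the 4 with a long 3' UTR, Klrb1c and Klrk1, had a distal one. A peak was also listed for 6 of 10 T cell, 5 of 8 B cell, 8 of 10 myeloid and 6 of 8 erythroid markers, and 0 of these genes had a distal peak. Few of them could have had one, since only 0 T cell, 3 B cell, 1 myeloid and 1 erythroid markers had both a peak and a long 3' UTR. The 0 therefore does not show that transcripts of other cells were absent from the distal set. The part of other cells in the distal peaks of genes outside the marker lists was not tested.

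The limits of the selection fell in the middle of a continuous range. Just inside 1000 nt were Rccd1 at 1001 nt with a fold of 1.52, Add3 at 1002 nt with 1.34 and Aph1a at 1002 nt with 5.21. Just outside were Ttll12 and Gtf2i at 1000 nt with 1.78 and 1.83 and Mdp1 at 999 nt with 1.52. At the width limit, the 66 distal peaks over 450 nt had a median fold of 2.57, the widest at 481 nt, and the 92 peaks of 506 to 550 nt that met every other criterion had a median of 2.63.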

How the data were processed

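Splenic NK cells gave 2 m6A immunoprecipitate and 2 input libraries. The authors trimmed reads, aligned them with HISAT2, called peaks with exomePeak and assigned genes and regions with ChIPseeker, and the submitters' processing notes also name fastp, cutadapt, HOMER, StringTie and edgeR, and the build GRCm38. How replicates were combined is not given in the sources used here. The deposited fold enrichment is a ratio of immunoprecipitate to input computed by the authors. The deposited significance is a score, the log10 of the unadjusted peak-calling p-value, with -1.3 as its weakest value. The deposited width is the span in nt, introns included. The list has 0 columns of per-sample values, so depth and replicate error are unknown, p-values between groups were not computed and peaks were only described.

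Of 20751 rows 24 repeated another and were dropped. Of 12351 gene identifiers 12332 were found in GENCODE M21. Each peak was given a position, that of the middle of its exonic part, along the longest coding isoform of the assigned gene with Python 3.11.15, pandas 2.3.3 and numpy 2.4.6, and distances were counted from the last base of the stop codon. Placement was tested on simulated data and recovered 2000 of 2000 known positions. Motifs were counted in windows of 75 nt on either side of the centre. Shares carry 95% Wilson intervals (scipy 1.17.1), which cover counting error only, and members of 1 gene are not independent. The step of the repeated fold values was sought among the 8 most repeated values from 5 to 20.

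The peaks, gene lists and thresholds were chosen with earlier results of these data known. Named genes follow a rule: Ptpn11, the 5 distal peaks with the lowest p, the 5 with the highest fold at p under 0.001, the 5 farthest past the stop codon, the 3 genes with the most distal peaks, up to 3 genes per list by lowest p, and the 3 peaks on each side of the distance limit. Other list members, the genes with both peaks and Tmem127 were named after their values were seen, as were the 300-nt limit at the transcript end and the repeated fold values. Alternatives changed the width, distance, fold and p limits, the transcript, the treatment of repeated, overlapping and isoform-specific peaks, the window and the motif. Some genes that the rule names are not reported here.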

Additional observations from a re-analysis of the deposited data

How the results depend on the processing

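Of 68 alternative values for 6 results, 42 stayed within the counting interval of the main value or, for the number of peaks, within 1.5 times it, and 26 did not. The 2981 distal peaks became 1407 beyond 2000 nt, 1715 at p under 0.001, 1595 at a fold of at least 2, and, in alternatives chosen after seeing the data, 1366 over 300 nt from the transcript end and 968 that lie in every coding isoform. The share with p under 0.001 (57.5%) became 51.4% at a width up to 300 nt, 53.7% beyond 2000 nt, 52.6% at a fold of at least 2, 62.2% with the peak of lowest p per gene and 53.3% over 300 nt from the end. The median fold (2.09) became 2.01, 2.20, 3.16 and 2.145 under the first 4 of these and 1.98 at p under 0.001. The share with a fold of at least 5 (15.4%) became 12.3% up to 300 nt wide, 18.1% beyond 2000 nt, 11.1% at p under 0.001, 28.7% at a fold of at least 2, 17.5% over 300 nt from the end and 12.9% in every isoform. The share with DRACH (94.7%) became 91.5% over the whole exonic part, 85.8% in windows of 50 nt on either side and 32.1% for GGAC, and its density (19.5 per kb) became 2.69 for GGAC and 19.1 in every isoform. Other causes of these moves than the changed selection or window were not tested. No paired analysis was possible because no value is listed for any single library, and leaving out a replicate could not be run for the same reason. Depth is unknown, so it cannot be said what a missing peak means.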
